A study of Mus musculus with 32 samples.

Results

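The GATA transcription factor genes Gata1, Gata2, Gata3, Gata4, Gata5 and Gata6 and the genes of their Fog cofactors, Zfpm1 (Fog1) and Zfpm2 (Fog2), were examined in 32 lists of ATAC-seq summits from mouse limb buds, 1 list per library. ATAC-seq marks accessible chromatin, and a summit is the position at which a peak of transposase cuts is highest. A summit was given to a gene when it lay in the gene body or within 50 kb of it and the nearest protein-coding start was that gene's start. The 8 genes, of 21924 protein-coding genes in the annotation, held 589 of the 1234971 summits. Summits of all lists were merged into non-overlapping regions of 200 bp, of which 89 of 186170 belonged to these genes. The genes were chosen by the presence and rank of their summits in the sorted reporter-positive lists against the unsorted lists and in anterior against posterior lists, so these 2 contrasts are described without a test.

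The 6 EYFP+ lists (3 of E10.5 HL EYFP+ from hindlimbs and 3 of E10.5 FL EYFP+ from forelimbs) came from EYFP-positive cells of Etv2-EYFP embryos. Their reporter is driven by an Etv2 promoter fragment. The cells were sorted without CD31 and TIE2 so that endothelium was left out. The study's sorting methods exclude CD45-positive cells as well. E10.5 Posterior (1 list) held EGFP-positive cells of the posterior hindlimb of Shh-EGFP embryos. The 11 unsorted hindlimb lists were E9.5 HL (1, wild type), E10.25 WT (2, posterior cells of wild-type hindlimbs), E10.25 CKO (5) and E10.5 CKO (2), both posterior cells of HoxB6-Cre Tg/+; Etv2 fl/- embryos, and E10.5 Anterior (1, from Shh-EGFP hindlimbs). The remaining 14 lists were anterior and posterior hindlimb of 4 control and 3 Etv2OE embryos. Etv2OE embryos carried HoxB6-Cre Tg/+, iHA-Etv2 Tg/+ and ROSA26-STOP-rtTA-IRES-EGFP Tg/+ and received doxycycline through the dam, and the controls, labelled WT_Control, were littermates that lacked 1 of these transgenes (the methods name iHA-Etv2 or the rtTA cassette, the description of the embryos HoxB6-Cre). The labels give E10.5 for these 14 lists, whereas the study's methods place 1 of the doxycycline injections at E10.5 and the harvest later. HoxB6-Cre is active in the whole hindlimb precursor and not in its posterior part alone, so neither CKO nor Etv2OE is a model limited to posterior cells. The study describes its wild-type and Etv2CKO samples as pools of embryos, with fewer embryos in an Etv2CKO pool. It describes overexpression and control hindlimbs as taken from embryos analysed separately. Where nothing says that replicates came from separate embryos, a p-value measures only the spread between these lists.

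GATA factors bind the word GATA in DNA through 2 zinc fingers. Gata1, Gata2 and Gata3 are known for blood and lymphoid development, and Gata2 also for endothelium, the lineages that Etv2 specifies. Gata4, Gata5 and Gata6 are known for heart, gut and other mesoderm and endoderm derivatives, and Gata4 and Gata6 are also expressed in the anterior limb bud, where Gata6 restrains Shh. Fog proteins bind GATA factors rather than DNA and turn them towards activation or repression.

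Sequences of 6 of the regions on which the results below turn are shown, each 200 bases of the plus strand of mm10 (GRCm38.p6), in lower case with every GATA word in capitals. The word searched was GATA with A or T before it and A or G after it, that is AGATAA or AGATAG, and equally TGATAA or TGATAG, on either strand. A capital run can therefore be the reverse complement of such a word, and 2 overlapping words form 1 longer run. The Gata2 region 4123 bp before the first start (chr6:88189668-88189867) was listed in 26 libraries. The Gata3 region 1087 bp before the start (chr2:9879587-9879786) was the most often listed of the 89. The Gata5 region 11812 bp after the start (chr2:180322787-180322986), which lies beyond the 3′ end of the gene, was absent from the control and Etv2OE lists. The Zfpm1 region 12204 bp after the start (chr8:122294245-122294444) was the most often listed of its gene. The Zfpm2 regions 188058 bp (chr15:40852948-40853147) and 364887 bp (chr15:41029777-41029976) after the start each met one of the presence rules described below. All but the Gata2 and Gata5 regions lie in introns.
Gata2, 4123 bp before: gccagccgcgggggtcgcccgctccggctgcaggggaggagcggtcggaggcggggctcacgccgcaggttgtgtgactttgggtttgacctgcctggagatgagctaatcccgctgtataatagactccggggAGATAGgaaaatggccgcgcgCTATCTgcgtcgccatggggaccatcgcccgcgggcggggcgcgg
Gata3, 1087 bp before: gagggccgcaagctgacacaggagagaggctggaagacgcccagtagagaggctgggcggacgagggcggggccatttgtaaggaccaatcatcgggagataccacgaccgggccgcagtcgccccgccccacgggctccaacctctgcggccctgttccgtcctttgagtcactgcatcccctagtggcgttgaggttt
Gata5, 11812 bp after: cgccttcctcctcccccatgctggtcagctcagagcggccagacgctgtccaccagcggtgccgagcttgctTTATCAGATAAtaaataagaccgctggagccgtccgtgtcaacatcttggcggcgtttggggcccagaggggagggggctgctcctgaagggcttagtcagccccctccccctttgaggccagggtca
Zfpm1, 12204 bp after: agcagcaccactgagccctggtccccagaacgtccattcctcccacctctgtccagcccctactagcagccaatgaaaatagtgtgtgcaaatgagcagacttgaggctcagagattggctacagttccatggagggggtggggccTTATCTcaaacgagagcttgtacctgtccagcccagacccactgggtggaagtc
Zfpm2, 188058 bp after: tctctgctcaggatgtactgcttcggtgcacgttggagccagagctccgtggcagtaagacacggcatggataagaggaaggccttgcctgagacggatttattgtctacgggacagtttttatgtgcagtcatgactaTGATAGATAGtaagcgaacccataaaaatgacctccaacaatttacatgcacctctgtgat
Zfpm2, 364887 bp after: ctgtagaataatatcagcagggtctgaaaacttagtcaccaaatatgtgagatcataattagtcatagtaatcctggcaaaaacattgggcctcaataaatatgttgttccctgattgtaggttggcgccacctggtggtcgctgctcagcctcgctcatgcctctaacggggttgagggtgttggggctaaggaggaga
The Gata5 region and the Zfpm2 region 188058 bp after the start each held 2 words that overlap, on opposite strands in Gata5 and on the same strand in Zfpm2. The Gata2 region held 2 separate words on opposite strands, and the Zfpm1 region held 1. The Gata3 and Zfpm2 364887 bp regions held none.

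Lists held 13763 to 54676 summits. E10.5 Anterior (13763) and replicates 2 and 4 of E10.25 CKO (15626 and 19734) were the 3 shortest. The regions low in EYFP+ lists are also given without them, and other counts and ranges include them. Because no read counts come with the summits, depth is unknown and a missing summit is not evidence of closed chromatin. Rank is given as the position of a summit in its own list, ordered by the significance of its peak and expressed as a percent of the list, so a low percent is a strong summit. Where ranges of ranks are said below not to overlap, the share of all regions with such a separation was not counted. Such a separation is therefore not shown to be particular to these genes. As a check of the labels, the region 1045 bp inside Etv2 was listed in 2 of 2 E10.25 WT lists and in 0 of 7 CKO lists. It was in 15 of the 32 lists, with 1 of 3 E10.5 HL EYFP+ and 1 of 3 E10.5 FL EYFP+ lists, so its absence alone does not mark a knockout. Over 7 posterior limb genes, promoters were listed 15 times in the 4 control posterior lists and 10 times in the 4 anterior ones, and 12 and 6 times in the 3 Etv2OE posterior and 3 anterior lists. Tbx2 followed the labels most (4 of 4 posterior and 1 of 4 anterior control lists), and Grem1 went the other way (1 of 4 and 3 of 4). Over 5 anterior limb genes the counts were 11 and 12 in control posterior and anterior lists and 7 and 8 in Etv2OE. The control posterior lists were also longer (51265 to 54676 summits, against 40945 to 45762). Endothelial and ectoderm promoters were listed 12 times in control posterior and 7 times in anterior lists, so the control excess was not particular to posterior genes. Limb mesenchyme (21 and 22) and neural crest (2 and 4) had no such excess. In Etv2OE posterior and anterior lists the endothelial counts were 7 and 7 and the ectoderm counts 2 and 5. Promoters of the hindlimb genes Tbx4 and Pitx1 were each in 3 of 3 E10.5 HL EYFP+ and 1 of 3 E10.5 FL EYFP+ lists. Among limb mesenchyme genes the Twist1 promoter was listed in 31 libraries and the Prrx1 and Msx1 promoters in 29 each, whereas Tbx5 and Lmx1b promoters were in none. Lists of 1 group shared 24.0% to 51.5% of their regions, so no 2 lists were copies.

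The 8 genes differed in how many regions they held and how strong these were. Zfpm2, whose body spans 449558 bp, had 25 regions and Gata6 had 17, followed by Zfpm1 with 12, Gata4 with 10, Gata2 with 9, Gata3 with 8, Gata5 with 7 and Gata1 with 1. A longer gene can collect more summits, so these counts are not levels. Of the 89 regions, 16 (17.98%) were promoter regions, with a centre within 500 bp of a start, against 14.1% of the 186170 regions. A summit in 1 library alone made 27 of the 89 regions (30.3%, against 28.5% of all regions), and 13 (14.6%, against 16.9%) were listed in 16 or more libraries. None was listed in all 32 libraries, as 3574 regions of the whole set were. Neighbouring regions can share or split 1 site, and 22 pairs of centres of these genes lay within 400 bp. A summit in control or Etv2OE lists and none in the EYFP+ and unsorted lists was found for 21 of the 89 (23.6%), near the 22.1% of all regions.

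The strongest summit of Gata3 and of Zfpm1 ranked high in nearly every list. For Gata3 the best rank was 1.83% to 67.8% of the list (median 6.34%, 32 of 32 lists), and for Zfpm1 it was 2.41% to 30.5% (median 9.26%, 32 of 32). Zfpm2 followed with a median of 30.6% (31 of 32 lists) and Gata4 with 40.4% (32 of 32). The medians of Gata2, Gata5 and Gata6 were 51.0%, 54.9% and 57.7% of the list in the 31, 28 and 30 lists that held a summit of each. Gata1 had 1 summit in the 32 lists, at 88.2% of the list in E10.25 WT replicate 1. The ranges of neighbouring genes in this order overlapped throughout.

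**Figure D1:**
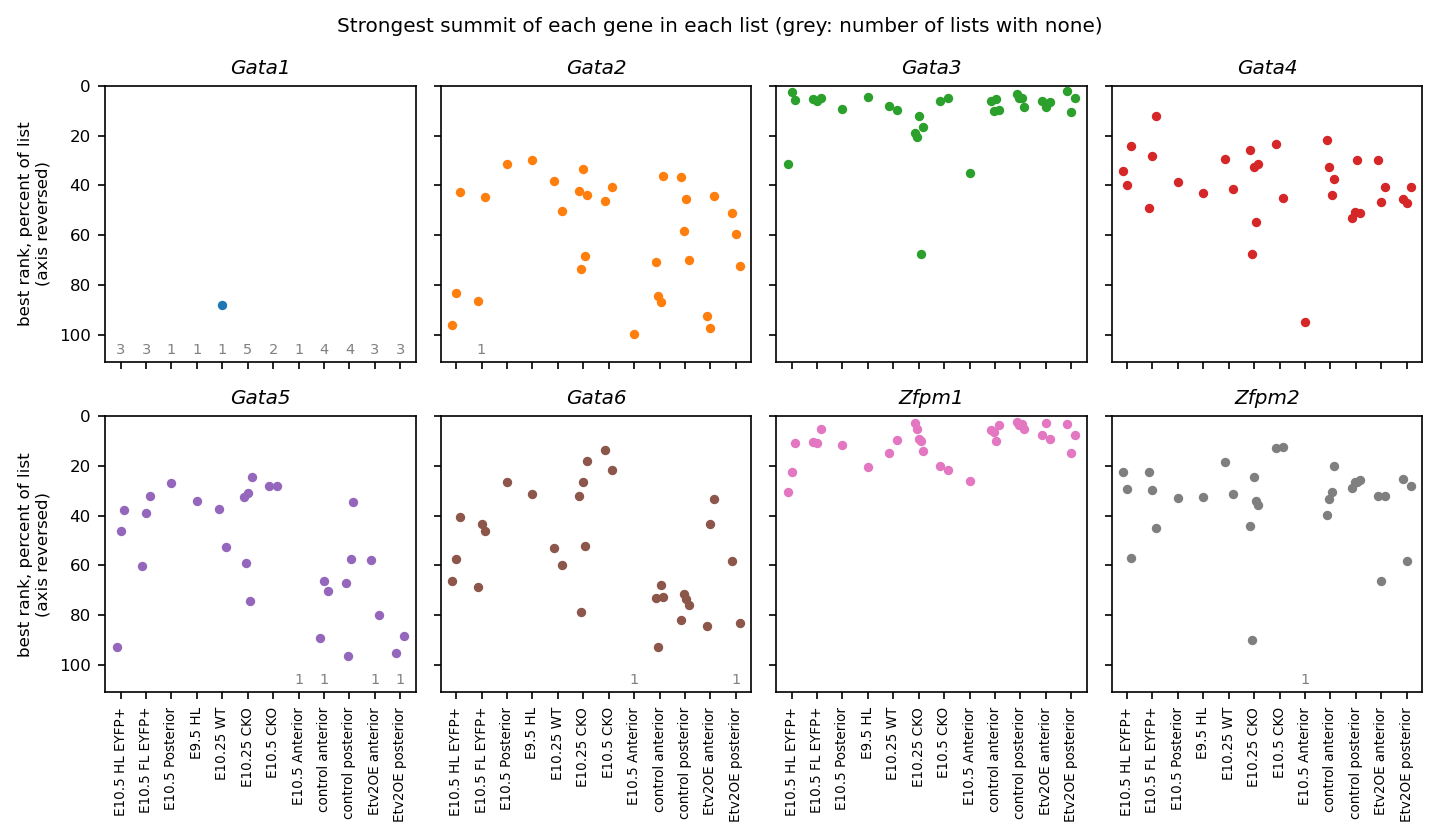
Each point is 1 list, placed at the rank of the strongest summit of the named gene as a percent of the list (vertical axis, reversed so that strong summits are at the top), by group, and grey numbers count lists with no summit of the gene. Gata3 and Zfpm1 points lie near the top in most groups, Gata6 points of the 8 control lists lie at 67.9% to 92.8%, and Gata1 has a single point.

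Among the factors best known for blood, Gata3 rested on 1 region. The region 1087 bp before its start was listed in 31 libraries, at 31.4%, 2.45% and 5.54% of the list in E10.5 HL EYFP+ and at 5.31%, 6.21% and 4.68% in E10.5 FL EYFP+. It stood at 3.38% to 10.20% in the 8 control lists and at 1.83% to 10.34% in the 6 Etv2OE lists. In E10.25 CKO it stood at 11.9% to 20.6% in 4 lists and was missing from replicate 4, a short list, while both E10.25 WT lists held it at 7.85% and 9.68%. In percent of the list these 4 CKO values were weaker than both WT values, without overlap, but list length enters that percent. Counted from the top of the list, CKO replicate 2 held it at position 3214, ahead of both WT lists (3420 and 3295). In lists of equal length the mean scores were 0.54 in CKO and 0.78 in WT (difference -0.24 ± 0.21, limma adjusted p of 0.753). The promoter region of Gata3, 77 bp before the start, behaved differently: it was listed in 4 of 6 EYFP+ and 7 of 11 unsorted lists and in E10.5 Posterior, but in 1 of 8 control and 0 of 6 Etv2OE lists. In that set it was stronger in the unsorted lists (23.3% to 58.9%) than in the EYFP+ lists (67.8% to 87.1%), and the 2 ranges did not overlap.

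Gata2, which is needed for blood stem cells, had 2 frequent regions with different distributions. The region 4123 bp before the first start was listed in 5 of 6 EYFP+, 9 of 11 unsorted, 6 of 8 control and 5 of 6 Etv2OE lists, with medians of 83.4%, 62.5%, 71.3% and 59.3% of the list. The region 308 bp after the inner start (promoter class, in an exon) was listed in 11 of 11 unsorted lists but in 2 of 6 EYFP+ lists, E10.5 HL EYFP+ replicate 3 at 42.6% and E10.5 FL EYFP+ replicate 3 at 44.8%. Of the 89 regions it had the largest difference between the 2 sets of lists, 33.3% against 100% of libraries. Its unsorted ranks were 40.8% to 99.9%, and the weakest was from E10.5 Anterior, the shortest list. This region was also in 5 of 8 control lists, at 58.4% to 86.8%, and in 0 of 6 Etv2OE lists. The neighbouring region 94 bp after the same start shared summits with it and was in 0 of 6 EYFP+, 5 of 11 unsorted, 3 of 8 control and 0 of 6 Etv2OE lists. Gata1, the factor of red cells and platelets, had no other summit than the one in E10.25 WT.

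Gata4 was listed most often 1715 bp before its inner start, in 29 libraries, in an intron of the longer transcripts. That region was in 5 of 6 EYFP+ lists (12.2% to 78.1%), 11 of 11 unsorted (23.1% to 94.9%), 8 of 8 control (21.8% to 53.0%) and 5 of 6 Etv2OE lists (29.7% to 46.9%), so its ranges overlapped in every set. The value of 94.9% was from E10.5 Anterior, the shortest list. The region 10776 bp before the outer start was in 26 libraries and stood higher in EYFP+ lists (median 46.9%, 6 of 6) and unsorted lists (41.3%, 9 of 11) than in control (65.7%, 7 of 8) and Etv2OE lists (78.8%, 3 of 6), with overlapping ranges. The promoter region, 36 bp before the outer starts, was in 5 of 6 EYFP+ and 6 of 11 unsorted lists. A neighbouring promoter region, 349 bp before, was in 3 of 11 unsorted lists and in no EYFP+, control or Etv2OE list. The region 36 bp before was in 4 of 4 control posterior lists at 75.5% to 95.4%, in 1 of 4 control anterior lists at 95.4%, and in 0 of 6 Etv2OE lists, all at the weak end of the lists.

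Gata5, a factor of heart and gut endoderm, was listed at its promoter, 3 bp before the start, in 21 libraries. The promoter stood at 24.6% to 59.1% of the list in 9 of 11 unsorted lists and at 27.0% in E10.5 Posterior, and at 81.1% to 96.5% in the 6 of 14 control and Etv2OE lists that held it, with no overlap between these 2 sets. The 5 of 6 EYFP+ lists that held it (37.6% to 92.8%) overlapped both. The region 11812 bp after the start was in 4 of 6 EYFP+ and 8 of 11 unsorted lists and in E10.5 Posterior (45.7%), and in 0 of 14 control and Etv2OE lists. The region 12583 bp before the start went the other way, with 7 of 8 control lists, 2 of 6 Etv2OE, 3 of 6 EYFP+ and 3 of 11 unsorted lists. The control and Etv2OE embryos differ from the others in genotype, doxycycline and harvest, and these cannot be told apart.

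Gata6 had 17 regions and 1 frequent one, its promoter 27 bp after the start, in 29 libraries. E10.5 CKO lists held it at 13.7% and 21.6% of the list, E10.25 CKO lists at 17.9% to 78.9%, E10.5 Posterior at 29.1%, the EYFP+ lists at 40.3% to 68.6%, and 7 of 8 control lists at 67.9% to 92.8%. The Etv2OE anterior lists held it at 84.5%, 43.4% and 33.1%, against none, 92.8%, 67.9% and 72.9% in the control anterior lists. The control lists and the E10.5 CKO lists did not overlap. The 16 other regions of Gata6 were each listed in 8 libraries or fewer. A pair of them, 7778 bp before and 66684 bp after the start, were found in unsorted lists and in no EYFP+, control or Etv2OE list, and are described with the sorted cells.

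Zfpm1 was the Fog gene with the strongest summits. Its intronic region 12204 bp after the start, where a readthrough gene (Gm20388) also runs, was listed in 30 libraries. It stood at 2.41% to 9.96% of the list in the 8 control lists and at 2.53% to 14.6% in the 6 Etv2OE lists, at 5.19% to 30.5% in the 6 EYFP+ lists and at 23.6% to 88.8% in 9 of 11 unsorted lists. The control and unsorted ranges did not overlap. E10.5 FL EYFP+ lists held it at 10.20%, 10.9% and 5.19% and E10.5 HL EYFP+ lists at 30.5%, 25.8% and 17.6%, without overlap. The promoter region, 248 bp before the start, was in 8 of 8 control lists (11.5% to 31.8%), 5 of 6 Etv2OE, 3 of 6 EYFP+ and 5 of 11 unsorted lists. The next region, 610 bp before the start, was in 6 of 11 unsorted lists (2.53% to 20.3%), 3 of 6 EYFP+ lists (10.7% to 24.0%) and E10.5 Posterior, in 1 of 6 Etv2OE lists and in 0 of 8 control lists. These 2 regions are neighbouring windows at 1 promoter, and in every group their 2 counts together equalled the number of lists. The counts therefore do not show that any group lacked a summit at the Zfpm1 promoter. The regions 35084 bp and 8775 bp before the start, both in introns of Gm20388, were in 8 and 7 of 8 control lists and each in 3 of 11 unsorted lists. In Etv2OE lists they parted, with 2 of 6 for the first and 6 of 6 for the second.

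Zfpm2, the Fog gene known for heart and gonad, was listed at its promoter, 92 bp after the start, in 27 libraries: 6 of 6 EYFP+, 6 of 11 unsorted, 8 of 8 control and 6 of 6 Etv2OE lists. The control ranks of this region (19.9% to 39.9%) and its Etv2OE ranks (31.9% to 70.2%) overlapped. Neighbouring regions 370 bp and 618 bp after the start were in 3 and 2 of 11 unsorted lists, the second in E9.5 HL. The count of 6 of 11 therefore does not show that the other unsorted lists lacked a summit near the start. Along its introns the regions differed between groups. The region 188058 bp after the start was in 3 of 3 E10.5 HL EYFP+ lists (39.4%, 29.3% and 57.0%) and 0 of 3 E10.5 FL EYFP+ lists, and it stood at 12.6% and 12.4% in the E10.5 CKO lists. The region 259331 bp after the start was likewise in 3 of 3 hindlimb lists (45.1%, 34.2% and 66.7%) and 0 of 3 forelimb EYFP+ lists. The region 268720 bp after it was in 3 of 3 forelimb lists (22.4%, 42.4% and 50.3%) and 0 of 3 hindlimb EYFP+ lists.

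**Figure D2:**
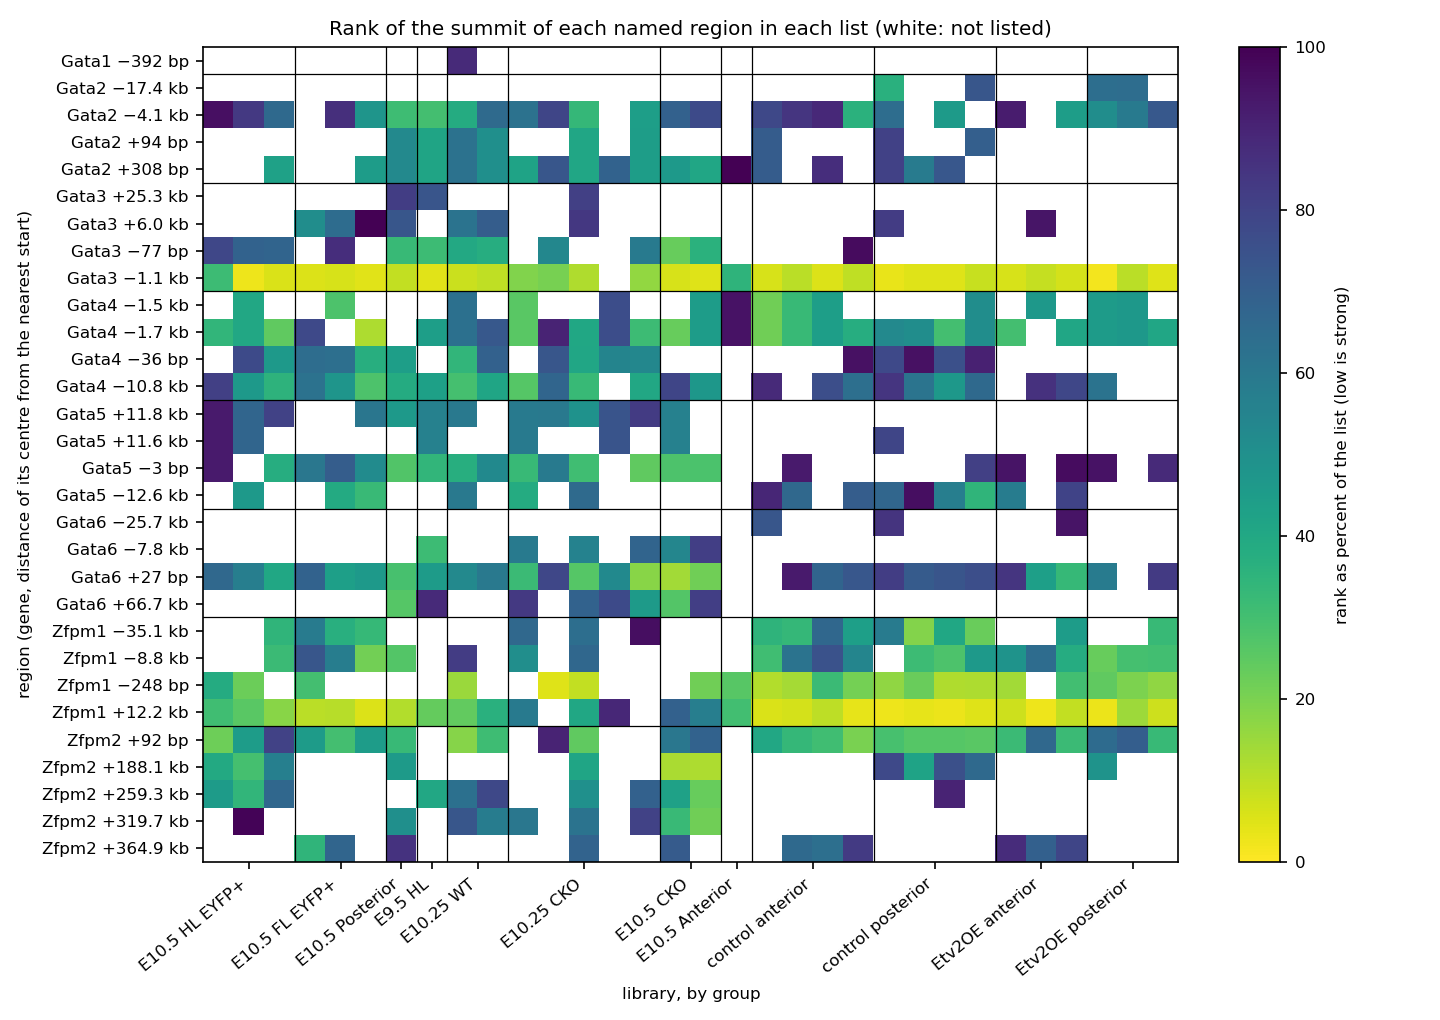
Each row is a region named by gene and distance of its centre from the nearest start, each column 1 library in its group, and the colour gives the rank of its summit as a percent of the list, with white for not listed. The Gata3 region 1087 bp before the start and the Zfpm1 region 12204 bp after it form the strongest rows, and the Gata6 rows 7778 bp before and 66684 bp after the start are empty in the 6 EYFP+ and the 14 control and Etv2OE columns.

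Sorted EYFP+ cells were set against unsorted hindlimb cells by a presence rule: a region was high in EYFP+ when 5 or more of the 6 EYFP+ lists and 2 or fewer of the 11 unsorted lists held it, and low when 1 or fewer EYFP+ and 6 or more unsorted lists did. None of the 89 regions was high, where 1.77% of all regions were, and 3 were low, where 1.42% were. The 3 low regions were the Gata6 region 7778 bp before the start (0 of 6 against 6 of 11 lists), the Gata6 region 66684 bp after it (0 of 6 against 7 of 11) and the Zfpm2 region 319661 bp after the start (1 of 6 against 7 of 11). Their ranks were those of weak to middling summits: 31.3% to 81.6%, 26.8% to 88.2% and 21.8% to 80.4% of the unsorted lists that held them. Both Gata6 regions and the Zfpm2 region were listed in 2 of 2 E10.5 CKO lists and in 3, 4 and 3 of 5 E10.25 CKO lists. The wild-type E9.5 HL list held both Gata6 regions (31.3% and 88.2%) and not the Zfpm2 region. E10.25 WT lists held the Zfpm2 region (73.3% and 57.8%) and neither Gata6 region, and E10.5 Posterior, which was also sorted, held the Gata6 region 66684 bp after the start at 26.4% and the Zfpm2 region at 50.3%. All 3 stayed low without the 2 shortest E10.25 CKO lists. E10.5 Anterior held none of the 3, so leaving it out could not change their call. In lists cut to the same 10000 strongest summits none of the 3 met the rule, and the Zfpm1 region 12204 bp after the start became high.

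The values just outside the rule came from other genes. The Gata2 region 308 bp after the inner start was in 2 EYFP+ and 11 unsorted lists and missed the low rule by 1 list, and the Gata2 region 94 bp after that start missed it with 5 unsorted lists. On the other side, the Zfpm1 region 12552 bp before the start was in 4 EYFP+ and 2 unsorted lists. A region with no summit in the unsorted lists was held by at most 3 EYFP+ lists, which applied to the Gata4 region 68427 bp before its start and the Zfpm2 region 268720 bp after its start, both in 3 of 3 forelimb lists. The EYFP+ lists were from 2 limbs and a sort, the unsorted lists from hindlimbs of several stages and genotypes, and sorting, stage and genotype cannot be told apart. In these bulk samples fewer cells of a type and less accessible chromatin per cell cannot be told apart either.

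**Figure D3:**
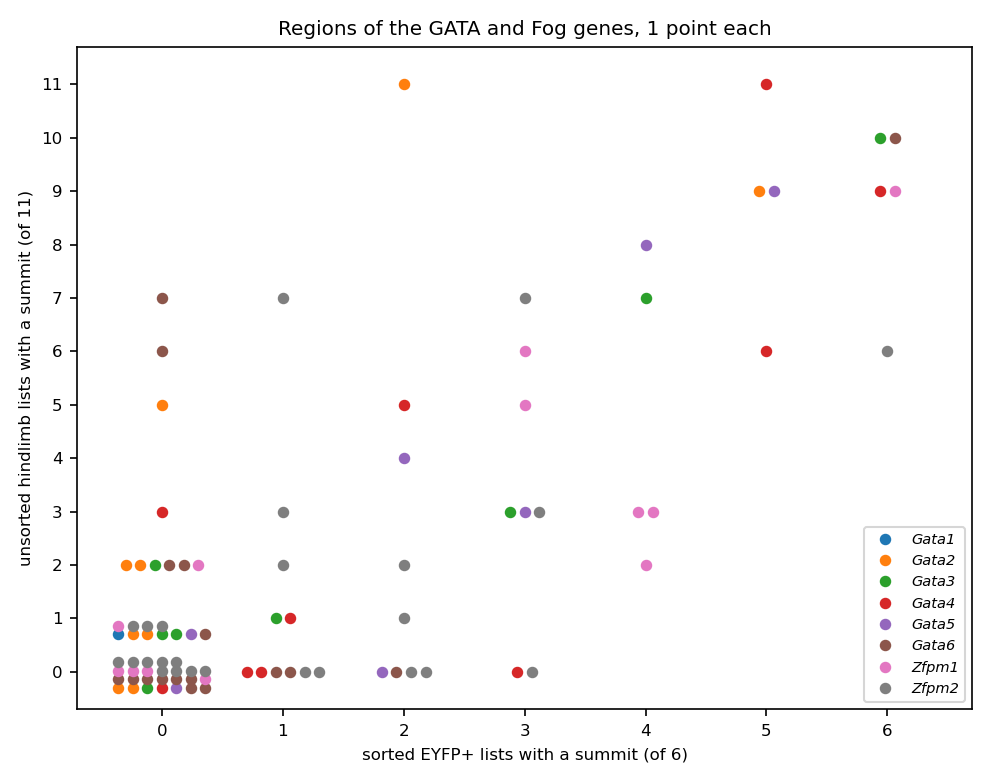
Each point is 1 of the 89 regions, coloured by gene and placed at the number of EYFP+ lists (horizontal, of 6) and unsorted hindlimb lists (vertical, of 11) that held it; points at the same counts are spread out. The Gata2 point at 2 and 11 and the Gata6 points at 0 with 6 and 7 lie at the upper left, and no point lies at 5 or 6 EYFP+ lists with 2 or fewer unsorted lists.

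Markers of other cells were read beside this contrast. Of 10 endothelial genes, 2 to 4 promoters were listed in each EYFP+ list and 1 to 6 in each unsorted list. The defining genes Cdh5, Pecam1 and Tie1 were at 0 of 32 lists, while Kdr was in 32. Of 10 blood genes, 1 to 2 were listed in the EYFP+ lists and 1 to 4 in the unsorted lists, with Ptprc, Klf1, Spi1, Itga2b and Hbb-bt at 0 of 32 and Cd44 in 29. The EYFP+ cells had been sorted without CD45, the product of Ptprc, as well as without CD31 and TIE2. Ectoderm promoters numbered 0 to 4 of 8 in EYFP+ lists, 0 to 6 in unsorted lists and 6 in E10.5 Posterior, and neural crest promoters 0 to 1 of 6 in EYFP+ and 0 to 3 in unsorted lists. Muscle promoters numbered 1 to 3 of 6 in both. In control and Etv2OE lists the endothelial counts were 1 to 4 and 2 to 3, the blood counts 2 to 3 and 1 to 3. The part of these cells in the GATA regions was not tested.

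Anterior and posterior hindlimb were compared within the control embryos and within the Etv2OE embryos, with a region called where all lists of 1 side and none of the other held it. In controls, 0 of the 89 regions were anterior, where 0.187% of all regions were, and 1 was posterior, where 0.778% were. This was the Zfpm2 region 188058 bp after the start, at 78.1%, 42.1%, 75.7% and 65.8% of the 4 posterior lists and in none of the 4 anterior lists. The posterior control lists were longer (51265 to 54676 summits) than the anterior ones (40945 to 45762), and in lists cut to 40000 summits the region no longer met the rule. Just outside it, the Gata4 promoter was in 4 of 4 posterior and 1 of 4 anterior lists, and the Zfpm2 region 364887 bp after the start was in 3 of 4 anterior and 0 of 4 posterior lists.

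In Etv2OE embryos, 1 of the 89 regions was anterior, where 0.400% of all regions were, and 0 were posterior, where 0.876% were. The anterior one was the same Zfpm2 region 364887 bp after the start, at 87.3%, 69.2% and 79.0% of the 3 anterior lists and in none of the 3 posterior lists. In the control lists, which had no part in this call, it was in 3 of 4 anterior and 0 of 4 posterior lists, at 63.4% of the list or weaker. It did not meet the rule in lists of 30000 summits. It was also held by 2 of 3 E10.5 FL EYFP+ lists (34.4% and 67.3%) and 0 of 3 E10.5 HL EYFP+ lists. The Zfpm2 region 188058 bp after the start, called in the controls, was in 1 of 3 Etv2OE posterior lists (48.7%) and 0 of 3 Etv2OE anterior lists.

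For the comparisons that had no part in the choice of genes, each list was cut to the same number of strongest summits and a region scored from 1 (strongest) to 0 (not listed), and limma was fitted over all regions listed in at least 2 libraries. No region of the 8 genes passed an adjusted p of 0.05 in any of the 5 tests. Over 115 tests of their regions, 12 had an unadjusted p under 0.05, and these are given below with their values. They were 2, 2, 2 and 3 of 25 and 3 of 15 regions, for Etv2OE in anterior and posterior hindlimb, the difference of these effects, forelimb against hindlimb, and CKO against WT. Over all regions tested the same shares were 6.08%, 5.91%, 4.82%, 5.75% and 11.7%.

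Etv2OE was compared with control to ask what induced ETV2 does to accessibility. In anterior hindlimb, 64 of 59717 regions (0.107%) were called by limma, 42 higher and 22 lower in Etv2OE (12 and 58 in whole lists), and 0 of the 25 tested regions of the 8 genes. The Gata6 promoter had the smallest p: within the 30000 strongest summits it was listed in 2 of 3 Etv2OE and 0 of 4 control anterior lists, with a difference of 0.37 ± 0.11 (SE) in score and an adjusted p of 0.527 in limma. Without Etv2OE anterior replicate 7, the list that lacked it there, the difference was 0.55 with an adjusted p of 5.54e-05, so the call turned on 1 library. The Gata4 region 68427 bp before its start was in 3 of 4 control and 0 of 3 Etv2OE anterior lists (difference -0.27 ± 0.08, limma adjusted p of 0.588). Without control anterior replicate 1, which lacked it, the adjusted p was 0.0331.

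In posterior hindlimb, 42 regions (0.0703%) were called, 28 higher and 14 lower (41 and 392 in whole lists), and 0 of the 25. The Zfpm1 region 8775 bp before the start scored 0.62 in Etv2OE and 0.28 in control lists (difference 0.34 ± 0.14, limma adjusted p of 0.780). The Zfpm2 promoter scored 0.23 and 0.53 (difference -0.30 ± 0.12, adjusted p of 0.791). The difference between the anterior and the posterior effect of Etv2OE was called at 40 regions (0.0670%), 19 with a higher and 21 with a lower value in anterior (54 and 30 in whole lists), and at 0 of the 25. The Gata6 promoter (0.34 ± 0.15, adjusted p of 0.965) and the Gata4 region 68427 bp before the start (-0.27 ± 0.12, adjusted p of 0.965) again had the smallest p, and without Etv2OE anterior replicate 7 the Gata6 promoter had an adjusted p of 0.00114. The anterior and the posterior comparison contrast separate lists. All 3 tests come from 1 fit to the 14 lists with a shared estimate of the spread, so their p-values are not separate.

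Forelimb was compared with hindlimb in the EYFP+ cells. Of 45582 regions, 22 (0.0483%) were called, 8 higher and 14 lower in forelimb (99 and 47 in whole lists), and 0 of the 25 tested regions of the 8 genes. The same 3 Zfpm2 regions that did not overlap between the limbs led: 188058 bp (-0.51 ± 0.09, limma adjusted p of 0.189), 259331 bp (-0.43 ± 0.10, adjusted p of 0.336) and 268720 bp after the start (0.42 ± 0.14, adjusted p of 0.665), with positive values for forelimb. Forelimb and hindlimb lists share numbers in the labels, which do not say what a number marks, and same-numbered lists deviated together. With the number as a block, 0 of the 45582 regions and 0 of the 25 were called. With list presence in place of the score, 4 of the 25 regions were called, these 3 and the Gata3 promoter. Over all 45582 regions 600 were then called higher and 564 lower in forelimb. The spread within groups is 0 by construction for such regions.

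**Figure D4:**
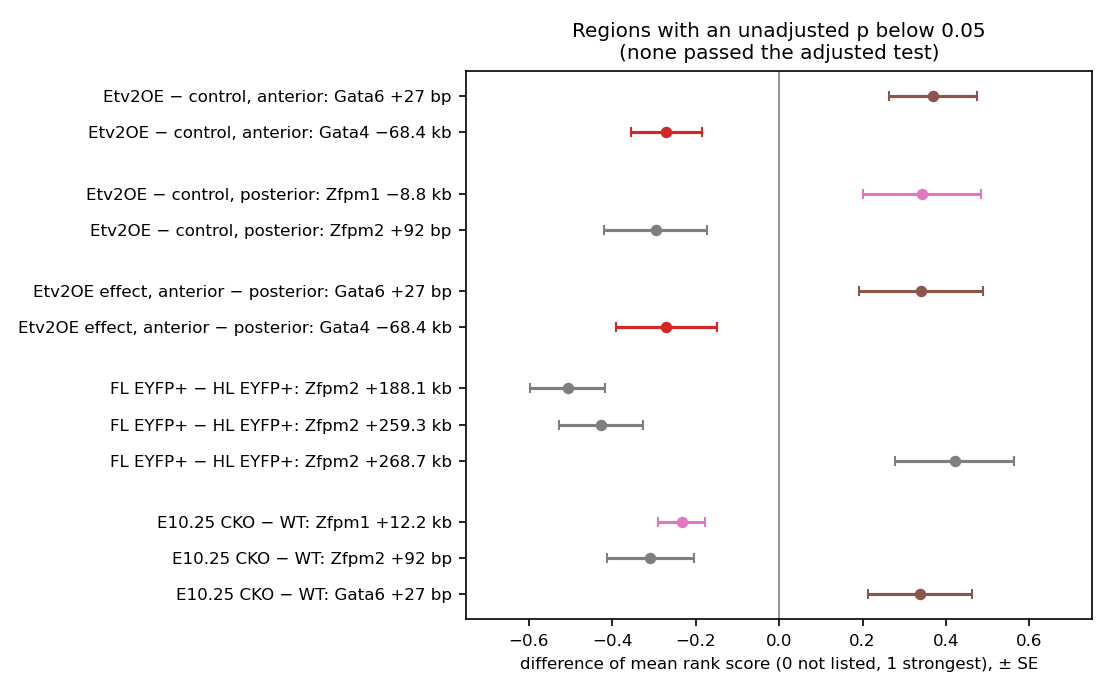
Points are the 12 regions and tests with an unadjusted p under 0.05, at the difference of mean rank score (horizontal axis, 0 for not listed and 1 for the strongest summit, first group minus second), with bars of 1 SE from limma and colour by gene. The Zfpm2 point at -0.51 for E10.5 FL EYFP+ minus E10.5 HL EYFP+ is the farthest from 0, and none passed the adjusted test.

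E10.25 CKO was compared with E10.25 WT to ask what the loss of Etv2 does. Of 24300 regions in lists of 15000 summits, 499 (2.05%) were called, 83 higher and 416 lower in CKO (78 and 2156 in whole lists), and 0 of the 15 tested regions of the 8 genes. The Zfpm1 region 12204 bp after the start scored 0 in 5 CKO lists and 0.23 in 2 WT lists (difference -0.23 ± 0.06, limma adjusted p of 0.124). In whole lists it stood at 24.1% and 36.7% in WT and at 58.7%, 40.3% and 88.8% in 3 of 5 CKO lists, without overlap. The Zfpm2 promoter scored 0.07 in CKO and 0.38 in WT (difference -0.31 ± 0.10, adjusted p of 0.297). The neighbouring promoter region of Zfpm2, 370 bp after the start, went the other way, with 0.18 in CKO and 0 in WT (difference 0.18 ± 0.16, adjusted p of 0.753). In whole lists it was held by CKO replicates 1, 4 and 5 (44.0%, 34.2% and 35.7%), which lacked the first region, so each of the 5 CKO lists had a summit in 1 of the 2 promoter regions. The Gata6 promoter scored 0.34 in CKO and 0 in WT (difference 0.34 ± 0.12, adjusted p of 0.351), and in whole lists it was held by 5 of 5 CKO lists (17.9% to 78.9%) and by both WT lists (52.8% and 59.6%), with overlap. The median difference over the 15 regions was 0.10, against 0.00 over the 24300, and in whole lists the sign turned for the regions tested there (-0.07, against -0.09 over all). Over the marker lists, endothelial promoters numbered 4 to 6 of 10 in the WT lists and 1 to 4 in the CKO lists, and blood promoters 4 of 10 in both WT lists and 1 to 4 in the CKO lists. Of the 11 tested regions of the blood genes, 1 (Hbb-y) was lower in CKO (limma adjusted p of 0.0476). Their part in these values was not tested.

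Partner genes of the GATA factors were read from 3 fixed lists. Among 9 relatives with a GATA-type zinc finger, the promoters of Gatad1, Gatad2a, Gatad2b, Mta2 and Rere were listed in 32 libraries. Trps1 was in 31, Mta1 in 28, Mta3 in 25 and Zglp1 in 0. Of these 9 genes, 5 to 8 had a listed promoter in each library. Of 10 blood and endothelial partners, 0 to 6 did: Ldb1, the bridge of GATA complexes, in 31 libraries, Runx1 in 29, Lmo2 in 17, Tal1 in 11 and Lyl1 in 7, with Fli1, Klf1 and Gfi1b in 0. Of 9 heart and limb partners, 3 to 6 did, with Isl1, Tbx3 and Tbx20 in 32 and Hand2 in 27. Mef2c was in 26 and Hand1 in 7, and Tbx5, Nkx2-5 and Nr2f2 were in 0. In the limma tests the 3 lists had 0 called regions in the 3 Etv2OE tests and in forelimb against hindlimb. In E10.25 CKO against WT, 2 of 23 regions of the relatives (both Rere) and 1 of 31 of the heart and limb partners (Isl1) were called, all 3 lower in CKO, where 1.71% of all regions were lower, and 0 of 21 of the blood and endothelial partners.

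The GATA word was counted in all regions. It was found in 22 of the 89 regions (24.7%) and in 21.9% of the 186170 regions. An ETS word (AGGAAGT or AGGAAAT on either strand), of the kind that Etv2 binds, was in 13 of the 89 (14.6%) and 12.03% of all. The 16 promoter regions held no GATA word, against 8.85% of 26337 promoter regions, and their median GC content was 66.5%. Of the 73 distal regions 22 held one (30.1%), against 24.1% of all distal regions. Zfpm2 had 9 of its 25 regions and Gata6 6 of its 17 with a word, and Zfpm1 1 of 12, in the intronic region 12204 bp after the start. A word is a description of the sequence and not a site. The RefSeq promoter table (GRCm38), in which 29.8% of 32851 promoters hold such a word, had entries for 5 of the 8 genes.

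Genes whose best rank over the 32 lists was most like that of each member were found by the mean absolute difference of rank score. For Gata3 these included Cryl1 and Cdk7 (0.036 each), and for Zfpm1 they were Tmed1, Spsb1 and Grpel1 (0.041 to 0.043). Gata4 was nearest to Bcor, Nectin1 and Gm45521 (0.081 to 0.092) and Zfpm2 to Dkk2, Nebl and Rims2 (0.083 to 0.087). Gata6 was nearest to Pou4f2, Otp and Nnmt (0.14 each), Gata2 to Camk2n1, Ctsf and Nfil3 (0.13 each) and Gata5 to Uts2, Gpr4 and Hoxc8 (0.14 each). Gata1, with 1 weak summit, was nearest to genes with 1 weak summit in the same list, so its nearest genes carry no pattern.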

How the data were processed

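The authors mapped paired reads to mm10 with Bowtie2 2.2.4, removed duplicates with Picard, shifted read starts to the transposase centre and called peaks with MACS2 (version and settings: not given in the sources used here). Each deposited list holds 1 summit per row with a −log10 q-value, whose lowest value of about 1.3 in each list is a q-value threshold of 0.05. Precision per value is unknown without read counts, and replicates give the spread. From these lists, mitochondrial summits were removed and the others ranked within a list. Summits were merged into 200 bp regions, listed in a library when a summit lay within 200 bp of the centre, and assigned to genes by GENCODE M21 (GRCm38). Sorted against unsorted and anterior against posterior lists were described by presence rules on whole lists. The other comparisons were fitted with limma 3.58.1 (R 4.3.3) on rank scores from lists of equal length (30000 summits for Etv2OE and for EYFP+, 15000 for E10.25), with Benjamini-Hochberg adjustment over all regions, and the fit was tested on simulated data. Equal length, distance, filters, presence, blocks and each library left out were the alternatives. The groups are those of the labels, with A and P in the sample descriptions read as anterior and posterior after the study's methods. The main fit of forelimb against hindlimb took the lists as unpaired. The number their labels share was a block in an alternative fit only, and each same-numbered pair deviated together (correlations of 0.186, 0.184 and 0.421). The regions named are, per gene, the most often listed promoter region and the 3 most often listed others, those called by limma and those meeting a presence rule. Others named, such as those with an unadjusted p under 0.05 and those just outside a rule, were added after their values were seen. Genes, lists and rules were chosen with earlier results of these data known. Sequences are RefSeq GRCm38.p6. Gata6 sequences are not shown, and some sequences and genes are not reported here.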

Additional observations from a re-analysis of the deposited data

Results flagged for a closer look

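Outlying libraries were looked for in the groups of 4 or 5 lists, over 49 sets of values of these genes, where chance flags about 1 in 20. In E10.25 CKO the best rank of Gata3 was 67.8% of the list in 1 library, replicate 4, while the next lowest of the 5 stood at 20.6%. That list is one of the 3 shortest (19734 summits) and lacks the region 1087 bp before the start. In control posterior lists the best rank of Gata4 was 29.8% in 1 library and 50.8% in the next, and the same values flagged the Gata4 region 1715 bp before the inner start, which was the strongest Gata4 summit there.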

How the results depend on the processing

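The limma tests called 0 regions of the 8 genes in all 5 comparisons with whole lists, with lists of 0.5 of the equal length, with 100 bp, without the filter on libraries, and with a replicate block (embryo for Etv2OE, label number for forelimb and hindlimb, shared numbers for E10.25). Presence in place of the score gave 4 of 25 regions for forelimb against hindlimb and 2 of 15 for E10.25 CKO against WT. Over all regions it called 600 higher and 564 lower of 45582 in the first, and 254 higher and 807 lower of 24300 in the second. Leaving out each library gave 0 to 1 regions for Etv2OE in anterior hindlimb and for the difference between the anterior and posterior effects, and 0 in the other 3 tests. Over all regions the calls moved from 64 to between 49 and 297 in anterior hindlimb, from 42 to between 33 and 236 in posterior hindlimb, from 40 to between 33 and 121 for their difference, from 22 to 0 for the limbs and from 499 to between 0 (without either WT list) and 602 for E10.25 with each library left out. Whole lists gave 70, 433, 84, 146 and 2234 calls. The replicate block for E10.25, on 4 lists, called 0 regions, and the embryo block left the counts at 64, 42 and 40. E10.25 numbers are shared labels only. The regions low in EYFP+ lists fell from 3 to 0 with equal-length lists and to 1 with 100 bp, and numbered 2 other regions (the Gata6 and Gata5 promoters) with equal-length lists without E10.5 Anterior. The regions high in EYFP+ lists went from 0 to 1 with equal-length lists. With each library left out, and the count that its group had to reach lowered by 1, they ranged from 3 to 4 and from 0 to 1. A region could then be gained but not lost, so no range could fall below the main count. The control posterior region was lost with equal-length lists (0), and with 100 bp another region, the Gata4 promoter, was the 1 called. The Etv2OE anterior region was lost with equal-length lists (0) and with 100 bp (0). With each library left out, controls gave 0 to 1 anterior and 1 to 2 posterior regions and Etv2OE 1 to 2 anterior and 0 to 1 posterior. The rule was again resized to the lists left, so here too no called region could be lost. Within 20 kb and 100 kb the 8 genes had 76 and 104 regions, against 89 within 50 kb, of which 52, 71 and 62 were in 2 libraries or more. The share with a GATA word was 47.2% at 500 bp (47.4% of all regions), 17.98% for GATAA alone (19.6%) and 20.97% for regions in 2 or more libraries (19.6%). The causes of these moves were not tested. Alternatives without the 2 shortest E10.25 CKO lists and equal-length lists without E10.5 Anterior were chosen after seeing the data. List length, not known depth, limits what a missing summit can show.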

Other observations

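The Gata2 region 17434 bp before the first start was listed in 2 of 4 control posterior lists (36.5% and 73.4% of the list) and 2 of 3 Etv2OE posterior lists (63.7% and 64.1%) and in none of the 7 anterior lists of those embryos or of the 18 lists of the other groups. Control posterior lists were longer than control anterior ones. In lists of 30000 summits the mean score was 0.09 in control posterior (1 list) and 0.06 in Etv2OE posterior (2 lists). The share of all regions with such a pattern was not counted.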
